A study of Mus musculus with 9 samples.

Results

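Interferon regulatory factors (IRFs) and signal transducers and activators of transcription (STATs) are the transcription factors through which cytokine and nucleic acid sensing reach the genome. The 9 genes described here are Irf1, Irf2, Irf3, Irf5, Irf7, Irf9, Stat2, Stat3 and Stat6, taken by gene symbol from a table of 49671 mouse genes in sorted microglia. Each symbol matched 1 row, and all 9 genes passed the filter on low values, among 15041 genes tested.

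In textbook form, IRF3 and IRF7 are switched on by kinases below viral RNA and DNA sensors and start the transcription of type I interferon. Interferon then binds its receptor on the same or a neighbouring cell, where Janus kinases phosphorylate STAT2. With IRF9 it is part of the complex ISGF3, which turns on antiviral genes, Irf7 among them. IRF5 acts below Toll-like receptors, IRF1 is induced by interferon-gamma and IRF2 binds the same sites as IRF1 and can oppose it, while STAT3 answers the interleukin-6 and interleukin-10 families and STAT6 answers interleukin-4 and interleukin-13. In microglia, the macrophages that live in brain tissue, the interferon arm is known from viral infection, ageing and injury.

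Messenger RNA was measured in 9 libraries, 1 per mouse, with 3 mice at each of 3 times, 7, 30 and 90 days after traumatic brain injury by controlled cortical impact (a tip driven into the exposed cortex). All 9 mice were male C57BL/6 (CD45.2) recipients that carried B6.SJL-Ptprca Pepcb/BoyJ (CD45.1) donor marrow, given at 8 weeks of age after 1000 cGy of irradiation with the head shielded and 30 mg/kg busulfan. They were injured at 16 weeks of age, with an impact of 2.5 m/s and 2 mm depth. All were kept on trimethoprim/sulfamethoxazole as chimeras, anesthetized with ketamine and xylazine for the impact and given buprenorphine afterwards. CD45.2 microglia were sorted, so that cells grown from donor marrow were gated out, while host leukocytes that survived the ablation would also carry CD45.2. No uninjured or sham group was used here. At the later time points the mice were older and further from irradiation, busulfan and transplant. Time since injury, age and time since that treatment therefore cannot be told apart.

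Between 7210985 and 12965926 reads per library were assigned to genes, and 3 reads corresponded to 0.231 to 0.416 CPM (reads of a gene per 1e+06 reads counted to genes). The 10 microglial markers, P2ry12 and Tmem119 among them, summed to 13999 to 17993 CPM at day 7 and 18754 to 20108 CPM at day 30. At day 90 they summed to 14692 to 21172 CPM, so that only days 7 and 30 did not overlap. Endothelial and pericyte markers, which a microglial gate should leave out, summed to 795 to 2515 CPM, and neutrophil markers to 1.42 to 239 CPM. The 4 B cell markers summed to 1.22 to 19.0 CPM, with Ms4a1 and Cd79a at no read, and the 6 T and NK cell markers to 0.0771 to 11.2 CPM, with Cd3e, Cd3d and Cd3g means at or under 0.669 CPM. Both lymphocyte sums were highest in day 90 replicate 1. The first replicate of day 90 was the least like the rest, with a median correlation across genes of 0.837 against 0.866 to 0.887 for the other libraries, and the changes of the 9 members from day 7 to day 90 are also given without it.

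Between days 7 and 90, Irf7 fell, and it was the 1 member of the 9 past the threshold in any comparison of time points. Irf9 and Stat2, the subunits of ISGF3 among the members, also had their highest means at day 7, and Stat3 had its lowest mean there, but none of these 3 passed the test. Irf1, Irf2, Irf3, Irf5 and Stat6 did not pass in any comparison either. Each gene was tested two-sided with limma on log2(CPM + 1). The p-values of all 15041 genes were adjusted together by Benjamini-Hochberg, and 0.05 was the threshold. Levels are given in CPM with the SD over 3 mice, and changes as log2 differences of CPM + 1, later minus earlier, with the standard error or the 95% interval.

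In day 90 against day 7, limma called 1 of the 9 members, against 0.246% of all genes tested. The edgeR and DESeq2 tests also called 1 member each, against 0.146% and 0.858% of all genes. In day 30 against day 7 limma and edgeR called 0 members and 0% of all genes, and DESeq2 called 1 member, Irf7, and 0.226% of all genes. At an unadjusted limma p under 0.05 that comparison had 1 member higher, against 3.56% of all genes, and 2 lower, against 2.68%. From day 30 to day 90 limma, edgeR and DESeq2 called 0 members, against 0.0532%, 0.0465% and 0.18% of all genes. There 0 members had an unadjusted limma p under 0.05, against 5.03% of all genes, and 0 had libraries that did not overlap, against 9.93%. The median log2 change of the 9 members was +0.06 at day 30 and +0.08 at day 90, both relative to day 7, and -0.05 from day 30 to day 90. Over all genes tested the medians were +0.04, -0.02 and -0.06. The first 2 comparisons share the day 7 libraries, so that their values are not independent.

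**Figure D1:**
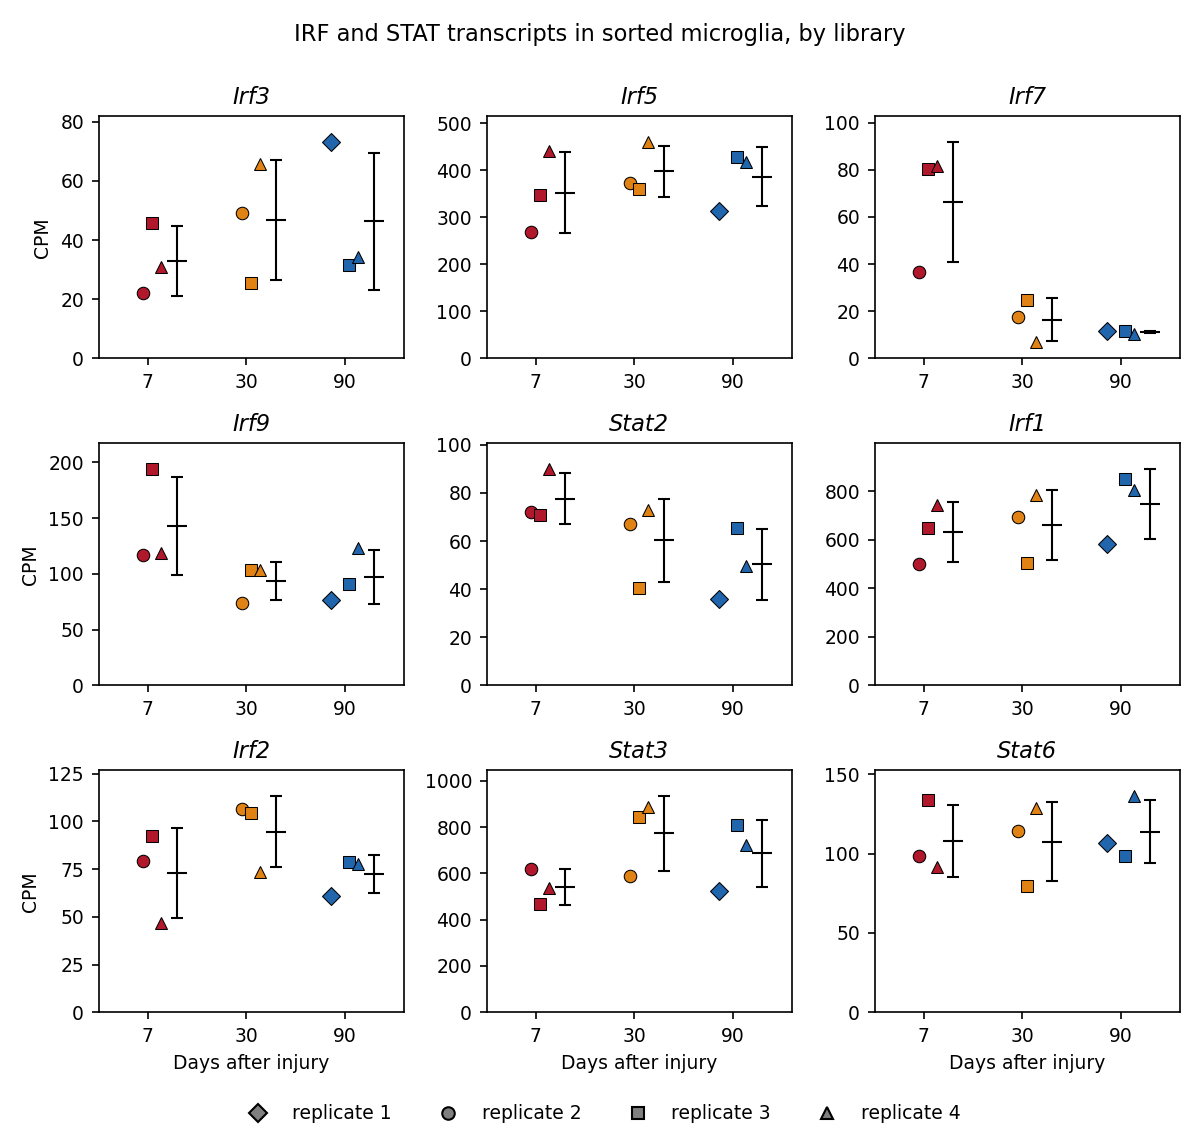
CPM of each of the 9 genes (vertical axes, each starting at 0) in the 9 libraries by days after injury (horizontal axes), with 1 marker shape per replicate number and the mean and SD over 3 mice drawn beside the points. Irf7 lies between 36.8 and 81.7 CPM at day 7 and at or under 24.8 CPM in all 6 later libraries, while the other 8 genes overlap between at least 2 of the time points.

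The inducers of interferon come first. Irf7 (ENSMUSG00000025498, minus strand of mm10 chr7:141262706-141266481) encodes the factor that amplifies interferon production once the first interferon has been made. Its values were 36.8, 80.2 and 81.7 CPM in day 7 replicates 2, 3 and 4. At day 30 they were 17.7, 24.8 and 6.83 CPM in replicates 2, 3 and 4, and at day 90 they were 11.6, 11.5 and 10.5 CPM in replicates 1, 3 and 4. Every day 7 library lay above every later library, and days 30 and 90 overlapped. Libraries that lie wholly below those of day 7 were found for 2 of the 9 members at day 30, against 5.74% of all genes. At day 90 they were found for 2 of the 9, against 6.27%.

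The Irf7 mean fell from 66.2 ± 25.5 CPM (SD, n = 3) at day 7 to 11.2 ± 0.611 CPM at day 90, a ratio of means of 5.92 and a log2 change of -2.38 ± 0.50 (SE, limma adjusted p = 0.0207). Since these are bulk libraries, fewer Irf7-expressing cells and less Irf7 RNA per cell cannot be told apart. At day 30 the mean was 16.4 ± 9.03 CPM, and the log2 change from day 7 of -2.02 ± 0.50 missed the threshold with limma (adjusted p = 0.362) and edgeR (adjusted p = 0.783) and passed with DESeq2 (adjusted p = 0.0469). From day 30 to day 90 the change was -0.36, with a 95% interval of -1.38 to +0.67. The moderated F-test over the 3 time points gave an adjusted p of 0.0399 for Irf7, with 0.173% of all genes past the threshold, and the other members had adjusted p of 0.755 to 0.994.

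The day 90 call of Irf7 held in 13 of 19 alternative settings. Over all 19 the log2 changes were -2.06 to -2.75 and the limma, edgeR or DESeq2 adjusted p 0.000367 to 0.408. The call was lost with a pseudocount of 0.1 CPM and with no filter on low values. It was lost without day 7 replicate 3 (-2.20, adjusted p = 0.193), day 7 replicate 4 (-2.19, adjusted p = 0.277), day 90 replicate 3 (-2.40, adjusted p = 0.0647) or day 90 replicate 4 (-2.34, adjusted p = 0.0603). It held without day 90 replicate 1, the library that stood apart (-2.40, adjusted p = 0.0129).

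The 9 Irf7 values rested on 78 to 924 reads. The lowest library, day 30 replicate 4, had 78 reads and an exact 95% Poisson interval of 5.40 to 8.53 CPM. The next lowest, day 90 replicate 4, had 124 reads and an interval of 8.72 to 12.5 CPM. The 3 day 90 libraries spread by 0.611 CPM (SD), where counting error by itself gives 1.001 CPM, and day 30 replicates 3 and 4 have intervals that are far apart. These intervals cover counting error only.

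Irf7 shares 45 bases at its 3′ end with the 3′ end of Phrf1, a gene on the opposite strand, and the strand setting of the counting is not given in the sources used here. Phrf1 stood at 75.9 ± 24.3, 91.1 ± 21.3 and 101 ± 8.23 CPM on days 7, 30 and 90. It did not pass the threshold (+0.45, limma adjusted p of 0.734 for day 90 against day 7). Its part in the Irf7 values was not tested.

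Other cell types were followed beside Irf7. The 6 neutrophil markers summed to 6.71, 239 and 64.4 CPM in day 7 replicates 2, 3 and 4, 4.86, 4.21 and 66.7 CPM at day 30, and 18.6, 1.42 and 81.6 CPM in day 90 replicates 1, 3 and 4. Of the 5 tested, 5 were lower in sign at day 30 and 4 at day 90, relative to day 7, with medians of -1.59 and -1.50. The 6 monocyte markers, Ccr2 and Ly6c2 among them, summed to 28.6 to 67.5 CPM at day 7, 17.2 to 54.6 CPM at day 30 and 17.7 to 31.2 CPM at day 90. Relative to day 7, 5 of the 6 were lower in sign at day 30 (median -0.70) and 6 of 6 at day 90 (median -1.32). The 6 endothelial and pericyte markers summed to 1326 to 2184 CPM at day 7, 903 to 1341 CPM at day 30 and 795 to 2515 CPM at day 90, with 6 of 6 lower in sign at day 30 (median -0.40) and 4 of 6 at day 90 (median -0.27). The 6 dendritic cell markers summed to 5.57 to 16.2 CPM at day 7, 4.09 to 21.5 CPM at day 30 and 15.3 to 30.5 CPM at day 90. Of the 2 tested, 1 was higher in sign at day 30 (median +0.09) and 2 at day 90 (median +1.54), relative to day 7. Flt3 had 0 reads in every day 30 and day 90 library. Of the 10 microglial markers, 8 were higher in sign at day 30 (median +0.23) and 5 at day 90 (median +0.08), relative to day 7. The part of any of these cells in the Irf7 change was not tested.

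The window from 250 bases before to 50 bases after the RefSeq start of Irf7 (GRCm38.p6, minus strand, chr7:141266375-141266674) is shown because Irf7 is the member that fell. It was searched on both strands for GAAA followed after 2 bases of any kind by GAAA, the paired core that IRFs and ISGF3 bind. It was also searched for TTCNNNGAA, a palindrome that many STAT dimers bind, but not for palindromes with another spacing. Capitals mark matches in all of the windows printed, and this one has none.
Irf7: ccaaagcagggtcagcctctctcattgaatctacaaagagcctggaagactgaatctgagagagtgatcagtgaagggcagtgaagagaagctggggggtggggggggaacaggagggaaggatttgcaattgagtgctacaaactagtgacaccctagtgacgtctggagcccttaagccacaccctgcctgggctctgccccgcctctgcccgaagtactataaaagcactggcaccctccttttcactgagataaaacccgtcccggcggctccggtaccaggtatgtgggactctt
Over 32851 such windows of RefSeq starts, 3.44% hold the first motif and 8.30% the second, and the 11 windows of the 9 members hold 2 matches of each. The 2 motifs did not overlap in the members' windows. Absence of a match says only that these letters are not in this window.

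Irf3 encodes the factor present before infection that starts interferon transcription. Its values were 22.2, 45.6 and 30.8 CPM at day 7, 49.2, 25.4 and 65.8 CPM at day 30 and 73.1, 31.6 and 34.2 CPM at day 90, in the order of replicate numbers. The 3 time points overlapped, with the highest value in day 90 replicate 1 and the lowest in day 7 replicate 2. The log2 change from day 7 to day 90 was +0.43, with a 95% interval of -0.39 to +1.26 (limma adjusted p = 0.840). Without day 90 replicate 1, the highest library, it was +0.06 (adjusted p = 0.985). The interval holds both a fall and a rise, so that a change of more than 2-fold upwards is not shut out by these 3 mice per group. Irf3 overlaps 1065 bases of Bcl2l12, on the opposite strand at its 5′ end, which had 1.25 to 15.5 CPM.

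Irf5 acts below Toll-like receptors and drives inflammatory cytokine genes in macrophages. It stood at 352 ± 86.7, 398 ± 54.1 and 386 ± 63.2 CPM on days 7, 30 and 90, with single libraries from 269 to 459.8 CPM. The time points overlapped fully and the change to day 90 was +0.15, with a 95% interval of -0.28 to +0.58, so that a change by a factor of 2 either way lies outside the interval. Without day 90 replicate 1 the change was +0.29. The last 1045 bases of Irf5 overlap Tnpo3 on the opposite strand, which had 68.2 to 105 CPM.

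Next come the subunits of ISGF3. Irf9 encodes its DNA-binding subunit. Its values were 117, 194 and 119 CPM in day 7 replicates 2, 3 and 4, then 73.9, 104 and 103 CPM at day 30 and 76.4, 90.7 and 124 CPM in day 90 replicates 1, 3 and 4. All 3 day 30 libraries lay below all 3 of day 7, as for 5.74% of all genes, while at day 90 replicate 4 reached above 2 day 7 libraries. The log2 change was -0.58 ± 0.27 at day 30 (limma adjusted p = 0.777) and -0.55 ± 0.27 at day 90 (adjusted p = 0.643). Without day 7 replicate 3, the highest library, these changes were -0.34 and -0.31. Without day 90 replicate 1 the day 90 change was -0.39. Irf9 shares 123 bases at its start with Rnf31 on the same strand, which had at most 20.6 CPM.

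Stat2 encodes a STAT subunit of ISGF3, a partner of IRF9. Its values were 72.2, 70.7 and 89.9 CPM at day 7, 67.1, 40.5 and 73.1 CPM at day 30, and 36.0, 65.6 and 49.6 CPM in day 90 replicates 1, 3 and 4. All day 90 libraries lay below all day 7 libraries, as for 6.27% of all genes, and day 30 overlapped with both. The mean went from 77.6 ± 10.7 to 50.4 ± 14.8 CPM between days 7 and 90, a log2 change of -0.65 ± 0.32 (limma adjusted p = 0.643). The lowest value was in day 90 replicate 1, and without that library the change was -0.43 (adjusted p = 0.763).

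The Stat2 window (GRCm38.p6, plus strand, chr10:128270248-128270547) holds the paired IRF core on its minus strand, at position -222 from the start, and is shown with the match in capitals.
Stat2: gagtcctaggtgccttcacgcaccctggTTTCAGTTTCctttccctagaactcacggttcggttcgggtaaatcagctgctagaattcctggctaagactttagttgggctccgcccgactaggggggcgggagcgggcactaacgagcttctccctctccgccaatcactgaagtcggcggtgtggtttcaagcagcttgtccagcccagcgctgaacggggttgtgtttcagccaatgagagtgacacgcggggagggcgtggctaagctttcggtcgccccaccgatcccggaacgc
Neither of the 2 Irf9 windows holds either motif. Both begin after the GENCODE start of Irf9 (chr14:55603571), at 55603735 and 55604329, so that the bases before that start were not searched.

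**Figure D2:**
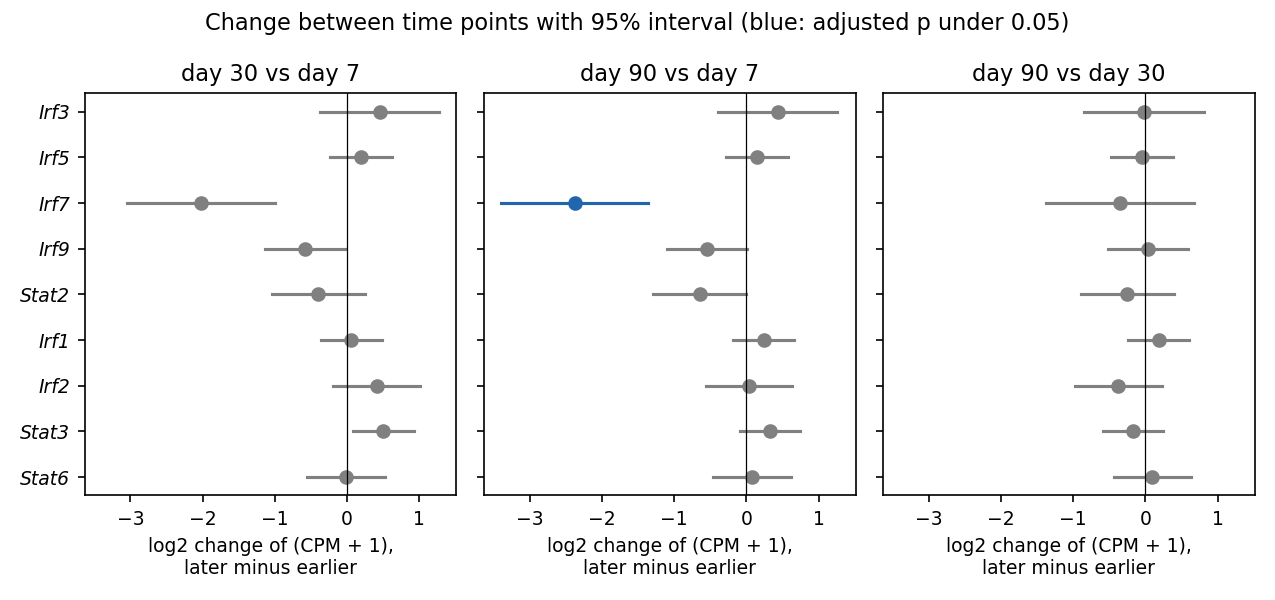
Log2 change of CPM + 1 (horizontal axes, later minus earlier, the same scale in each panel) of the 9 genes in the 3 comparisons of time points, with points for the limma estimate, lines for the 95% interval, and blue for an adjusted p under 0.05. The Irf7 interval lies below 0 in both comparisons with day 7, -3.04 to -1.002 at day 30 and -3.40 to -1.36 at day 90, and the day 90 against day 7 estimate is the 1 drawn in blue.

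Irf1 and Irf2 form the interferon-gamma pair. Irf1 encodes the activator and was the member with the highest mean level, 680 CPM over the 9 libraries. Its values were 501, 649 and 744 CPM at day 7, 693, 503 and 786 CPM at day 30, and 582, 853 and 806 CPM in day 90 replicates 1, 3 and 4. The 3 time points overlapped, and the change to day 90 was +0.24, with a 95% interval of -0.18 to +0.67 (limma adjusted p = 0.828). Without day 90 replicate 1 it was +0.41 (adjusted p = 0.578). Irf1 and Irf5 varied alike over the 9 libraries (Pearson r = 0.84), with both genes lowest of their time point in day 7 replicate 2, day 30 replicate 3 and day 90 replicate 1. This r is the highest among the 36 pairs of members and is given as a description, since all values share the libraries and their depth.

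Irf2 encodes the factor that competes with IRF1. It had 79.4, 92.5 and 46.7 CPM at day 7, 106, 104 and 73.2 CPM at day 30, and 60.8, 78.5 and 77.7 CPM in day 90 replicates 1, 3 and 4. Its time points overlapped too, with the 2 highest values at day 30. The change from day 7 to day 30 was +0.41 (95% interval -0.19 to +1.01) and from day 30 to day 90 it was -0.37 (-0.97 to +0.22). From day 7 to day 90 it was +0.04, and +0.15 without day 90 replicate 1.

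The first Irf1 window (GRCm38.p6, plus strand, chr11:53769764-53770063) holds the STAT palindrome at position -90 from the start, and the Irf2 window (plus strand, chr8:46739495-46739794) holds the IRF core at position -241 and the STAT palindrome at -224 from the start. They are printed as the members with this STAT palindrome, in capitals.
Irf1: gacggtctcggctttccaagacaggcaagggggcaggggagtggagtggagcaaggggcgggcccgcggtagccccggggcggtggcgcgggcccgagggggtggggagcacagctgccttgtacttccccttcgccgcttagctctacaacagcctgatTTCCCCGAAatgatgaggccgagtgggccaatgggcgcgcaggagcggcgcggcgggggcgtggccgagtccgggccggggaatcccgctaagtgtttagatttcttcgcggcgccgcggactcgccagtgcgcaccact
Irf2: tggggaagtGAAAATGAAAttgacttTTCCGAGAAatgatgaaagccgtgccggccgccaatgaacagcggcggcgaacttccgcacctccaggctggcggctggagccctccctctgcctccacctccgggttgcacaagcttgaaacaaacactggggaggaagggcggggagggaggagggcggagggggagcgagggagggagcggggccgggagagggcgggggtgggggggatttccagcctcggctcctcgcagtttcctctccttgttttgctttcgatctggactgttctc

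Stat3, the mediator of interleukin-6 and interleukin-10 signals, had 621, 467 and 535 CPM in day 7 replicates 2, 3 and 4. At day 30 it had 589, 845 and 885 CPM, and at day 90 it had 525, 810.1 and 723 CPM in replicates 1, 3 and 4. In each later time point 2 libraries lay above all of day 7 and 1 lay within its range. The change was +0.50 ± 0.21 at day 30 (limma adjusted p = 0.731) and +0.33 ± 0.21 at day 90 (adjusted p = 0.736). Without day 90 replicate 1 the day 90 change was +0.51 (adjusted p = 0.404). The 9 markers of tissue handling, immediate early and heat shock genes such as Fos and Hspa1a, summed to 26434 to 31882 CPM at day 7, 33494 to 36983 CPM at day 30 and 34293 to 47720 CPM at day 90, and their part in the Stat3 values was not tested. The last 72 bases of Stat3 overlap the end of Stat5a on the opposite strand, which had 9.77 to 31.5 CPM.

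Stat6, the mediator of interleukin-4 and interleukin-13 signals, had 98.7, 134 and 91.8 CPM at day 7, 114, 79.7 and 129 CPM at day 30, and 107, 98.3 and 136 CPM in day 90 replicates 1, 3 and 4. Its means of 108 ± 22.6, 108 ± 25.1 and 114 ± 19.9 CPM were closer than their spread. The change to day 90 was +0.08, with a 95% interval of -0.46 to +0.61 (limma adjusted p = 0.970), and was +0.12 without day 90 replicate 1. Its last 40 bases overlap the end of Nab2 on the opposite strand, which had 48.6 to 169.9 CPM.

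Since each read of this 3′ end kit stands for the end of a transcript, CPM was not divided by gene length, and levels can be set beside each other across genes only roughly. By mean CPM over the 9 libraries the order was Irf1 (680 CPM), Stat3 (667), Irf5 (379), Irf9 (111), Stat6 (109.8), Irf2 (79.95), Stat2 (62.7), Irf3 (42.0) and Irf7 (31.3). Irf1 and Stat3 ranged over 501 to 853 and 467 to 885 CPM and cannot be ordered, and neither can Irf9 and Stat6, at 73.9 to 194 and 79.7 to 136 CPM. At day 7 Irf7 was above Irf3 in all 3 libraries, and at day 90 it was below Irf3 in all 3. From the lowest to the highest library the members spanned from 1.70-fold for Irf1 to 11.95-fold for Irf7, with Irf3 next at 3.29-fold.

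The rest of the pathway was read from 10 lists of ligands, receptors, kinases, inhibitors, sensors and target genes. In the comparison of day 90 with day 7, limma called 0.0399% of all genes higher and 0.206% lower, and at an unadjusted p under 0.05 it had 3.48% higher and 4.25% lower.

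Of 45 listed targets of type I interferon, 42 were tested. At day 90 against day 7 limma called 2 lower, 23 were lower at an unadjusted p under 0.05, and 40 of 42 were lower in sign, with a median log2 change of -1.13. In the same comparison markers of monocytes (6 of 6), neutrophils (4 of 5) and endothelial cells and pericytes (4 of 6) were lower in sign. Their medians were -1.32, -1.50 and -0.27. Markers of dendritic cells (2 of 2), neurons (5 of 6), border-associated macrophages (3 of 5) and astrocytes (3 of 5) were higher in sign. Their medians were +1.54, +0.49, +0.49 and +0.44. The part of any of these cells in the list was not tested. Lgals3bp, which encodes a secreted galectin-binding glycoprotein, fell from 608 ± 33.0 CPM at day 7 to 201 ± 21.4 CPM (a log2 change of -1.60 ± 0.20, with an adjusted p = 4.38e-06). It had 575, 641 and 607 CPM in the day 7 libraries, 284, 326 and 304 CPM at day 30 and 185, 192 and 225 CPM at day 90, so that the 3 time points did not overlap. Bst2 encodes tetherin, which holds budding virus at the cell surface. Its mean fell from 303 ± 68.0 CPM to 121 ± 43.4 CPM (a change of -1.35 ± 0.25, adjusted p = 0.00488). Its call did not survive leaving out day 7 replicate 3 (-1.18) or day 90 replicate 3 (-1.20), or testing with no filter on low values (adjusted p = 0.408). At day 30 against day 7 limma and edgeR called 0 of the 42, DESeq2 called 2 and 21 were lower at an unadjusted p under 0.05, where 2.68% of all genes were, with a list median of -0.91. Between days 30 and 90 the list median was -0.02, with 20 members higher and 22 lower in sign, limma, edgeR and DESeq2 called 0 of them and 2 were lower at an unadjusted p under 0.05, where 3.44% of all genes were.

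**Figure D3:**
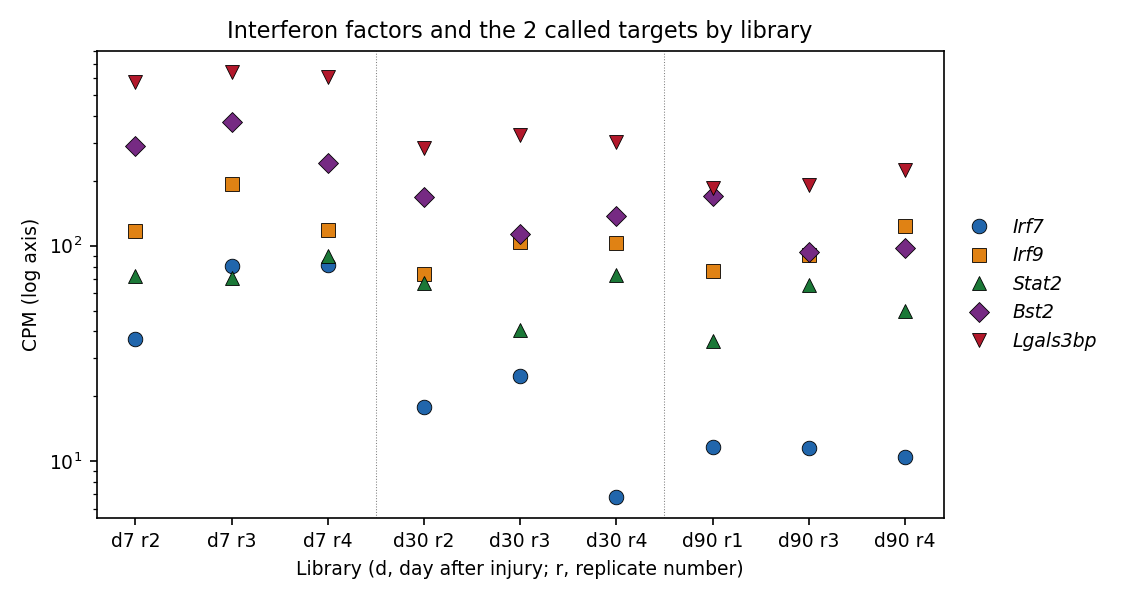
CPM on a log axis (vertical) of Irf7, Irf9, Stat2 and the 2 called targets Bst2 and Lgals3bp in the 9 libraries (horizontal, d for day and r for replicate number), with dotted lines between time points. Irf7, Bst2 and Lgals3bp are higher in every day 7 library than in any day 30 or day 90 library, and Irf9 and Stat2 overlap between day 7 and one of the later times.

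Targets of interferon-gamma, such as the immunity-related GTPase gene Ifi47 and the class I light chain gene B2m, had 19 tested members, with a median of -0.53 at day 90 against day 7. Limma and edgeR called 0 of them, DESeq2 called 2, and 4 were lower at an unadjusted p under 0.05. Ifi47 stood at 16.7 ± 3.26 CPM at day 7 and 2.52 ± 3.37 CPM at day 30 (log2 change -2.74, adjusted p = 0.425). B2m stood at 2591 ± 519.6 and 1643 ± 270.2 CPM on days 7 and 90 (-0.65, limma adjusted p = 0.259, edgeR adjusted p = 0.417, DESeq2 adjusted p = 0.0186).

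Of 19 tested STAT3 targets 1 fell at day 90 against day 7, Lcn2, the lipocalin gene that neutrophils also express, from 38.6 ± 29.2 CPM at day 7 to 0.257 ± 0.366 CPM (a log2 change of -4.49, with an adjusted p = 0.0147). Its day 7 libraries had 61.9, 5.82 and 47.9 CPM. The neutrophil markers summed to 6.71, 239 and 64.4 CPM in the same libraries, and their part in the Lcn2 change was not tested. The call was lost without day 7 replicate 2 (-3.90) or 4 (-4.08), without day 90 replicate 3 (-4.41), with a pseudocount of 0.1 CPM (-6.72), or with no filter on low values (-4.49, adjusted p = 0.450). The list median was +0.12 and 5 members were higher at an unadjusted p under 0.05. Junb is on this list and also among the 9 tissue handling markers. In the same comparison 9 of 9 handling markers were higher in sign (median +0.38). Their part in the STAT3 and STAT6 target lists was not tested. The STAT6 targets had 11 tested members and a median of -0.44, with 0 called by limma and edgeR, 1 by DESeq2 and 2 higher at an unadjusted p under 0.05. Among them Klf4, a macrophage transcription factor gene, stood at 508 ± 12.5 and 896 ± 146 CPM on days 7 and 90, its largest difference being from day 30 (+0.83, limma adjusted p = 0.144, edgeR adjusted p = 0.382, DESeq2 adjusted p = 8.8e-05), and Il4ra, the interleukin-4 receptor gene, at 177 ± 18.4 and 279 ± 63.6 CPM (+0.63, adjusted p = 0.433).

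**Figure D4:**
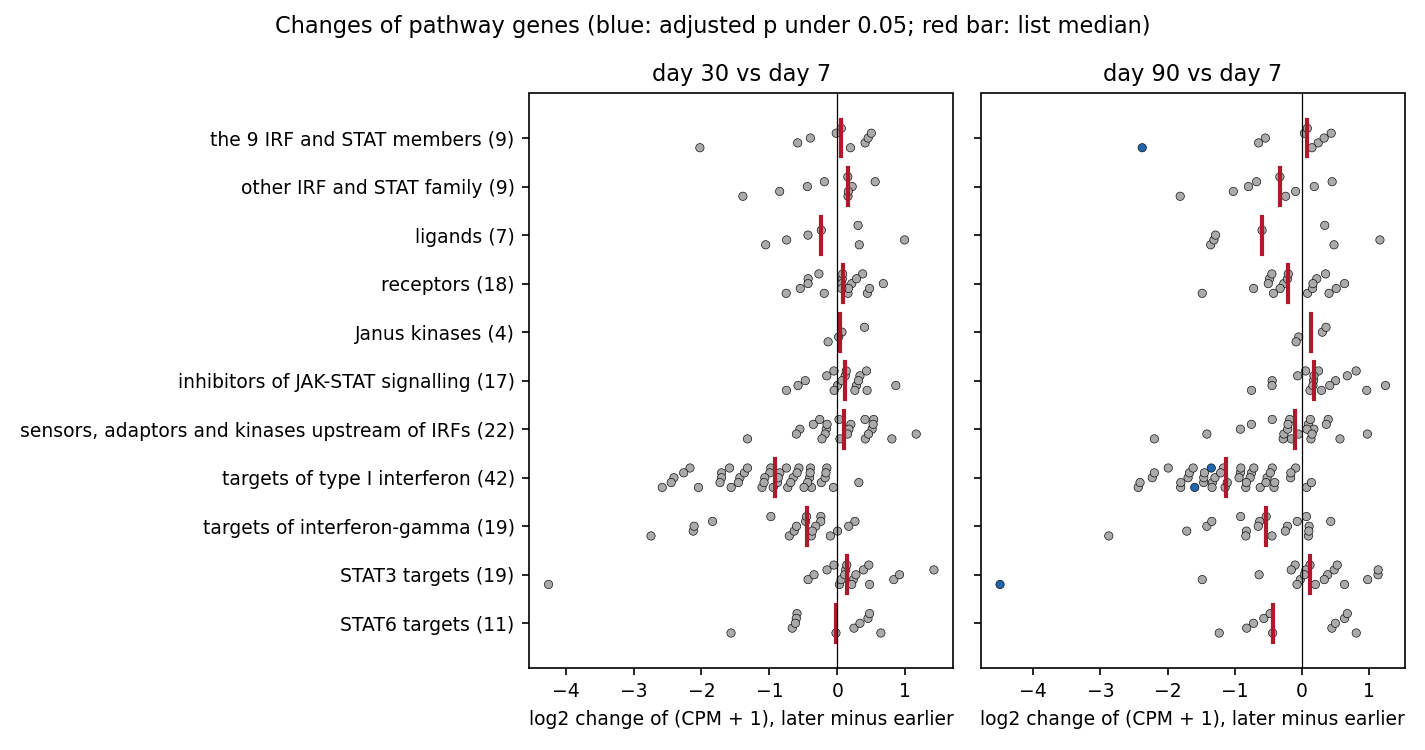
Log2 change of CPM + 1 (horizontal axes, later minus earlier) of each tested gene in the 9 members and the 10 pathway lists (vertical, number of genes in brackets), for day 30 and day 90 against day 7, with a red bar at each list's median and blue points for an adjusted p under 0.05. The type I interferon targets have medians of -0.91 and -1.13, and the blue points at day 90 are Irf7, Lgals3bp, Bst2 and Lcn2.

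The other IRF and STAT genes had 9 tested members, whose median change to day 90 was -0.33 relative to day 7. Limma, edgeR and DESeq2 called 0 of them and 2 were lower at an unadjusted p under 0.05.

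Of 19 ligands 7 were tested, with 0 called by limma, edgeR and DESeq2 at day 90 against day 7 and 2 lower at an unadjusted p under 0.05. Ifnb1, the interferon-beta gene, had 5, 3 and 0 reads over the 3 libraries of days 7, 30 and 90, and Ifna1, Ifna2 and Ifna4 had 0 reads in all 9 libraries, which allows up to 0.416 CPM in the shallowest library. Osm, the gene of oncostatin M, a cytokine that acts through STAT3, stood at 313 ± 109 and 201 ± 50.1 CPM on days 7 and 90 (-0.60, adjusted p = 0.499), and Il15 at 24.1 ± 5.46 and 9.48 ± 3.81 CPM (-1.31, adjusted p = 0.610).

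Of 20 receptors 18 were tested and their median at day 90 against day 7 was -0.21. Limma, edgeR and DESeq2 called 0 of them, and 2 were higher at an unadjusted p under 0.05. Il10ra, the interleukin-10 receptor gene upstream of STAT3, stood at 368 ± 61.9 CPM at day 7 and 585 ± 53.0 CPM at day 30 (+0.68, adjusted p = 0.431), with every day 30 library above every day 7 library, as for 6.85% of all genes. Csf2rb, the shared chain of receptors for GM-CSF, interleukin-3 and interleukin-5, went from 199 ± 76.2 at day 30 to 112 ± 31.1 CPM at day 90 (-0.80, adjusted p = 0.808).

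The 4 Janus kinase genes had 0 calls with limma, edgeR and DESeq2 and 0 at an unadjusted p under 0.05, with Jak1 at 249 ± 39.4 and 326 ± 16.5 CPM on days 7 and 30 (+0.40, adjusted p = 0.803) and Jak3 at 26.3 ± 9.36 and 37.8 ± 13.1 CPM on days 30 and 90 (+0.49, adjusted p = 0.959). The median over the 17 inhibitors was +0.18 for day 90 relative to day 7, with 0 calls by limma, edgeR and DESeq2 and 1 higher at an unadjusted p under 0.05. Pias3, which encodes an inhibitor of STAT3, stood at 33.2 ± 9.77 and 65.2 ± 18.1 CPM on days 7 and 90 (+0.96, adjusted p = 0.445), and the phosphatase gene Ptpn11 at 28.9 ± 10.0 and 51.7 ± 12.6 CPM on days 30 and 90 (+0.85, adjusted p = 0.955).

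Among 22 tested sensors, adaptors and kinases upstream of the IRFs the median at day 90 against day 7 was -0.11, with 0 calls by limma, edgeR and DESeq2 and 1 lower at an unadjusted p under 0.05. Zbp1, a nucleic acid sensor gene that is itself induced by interferon and counts among its targets too, stood at 23.0 ± 13.7 and 4.26 ± 3.50 CPM on days 7 and 90 (-2.20, adjusted p = 0.348). Tlr4, the receptor gene for bacterial lipopolysaccharide, stood at 21.3 ± 5.92 and 48.7 ± 12.1 CPM on days 7 and 30 (+1.16, limma adjusted p = 0.601). Every day 30 library lay above every day 7 library, as for 6.85% of all genes.

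The genes most like Irf7, Stat3 and Irf9, the 3 members with the smallest F-test p, were ranked by Pearson r of log2(CPM + 1) over the 9 libraries, as a description with no test. Nearest to Irf7 were Kif2a (r = 0.97, Spearman rho = 0.95), Ggact (0.95, rho = 0.89), Sh3kbp1 (0.93, rho = 0.82), Scand1 (0.93, rho = 0.77) and Clic3 (0.92, rho = 0.97). Without day 7 replicates 3 and 4, the libraries farthest from the Irf7 median, these r were 0.90, 0.92, 0.77, 0.73 and 0.80 over 7 libraries. Nearest to Stat3 were Tefm (r = 0.96), Tnfrsf22 (0.95), Dnajb1 (0.93), Rad9b (0.93) and Tiparp (0.93), of which Dnajb1 encodes a heat shock chaperone and stood at 454, 849 and 943 CPM on days 7, 30 and 90. Without day 30 replicates 3 and 4 these r were 0.97, 0.92, 0.99, 0.85 and 0.92. Nearest to Irf9 were Cetn4 (0.96), Qsox1 (0.91), Aif1 (0.91), Grcc10 (0.91) and Fzd3 (0.91), of which Aif1 encodes the macrophage protein IBA1. Without day 7 replicate 3 and day 30 replicate 2, the libraries farthest from the Irf9 median, these r were 0.96, 0.65, 0.77, 0.63 and 0.79. Ggact, Clic3, Tefm, Tnfrsf22, Rad9b, Cetn4 and Fzd3 had mean levels under 10 CPM at every time point.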

How the data were processed

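The deposited values were CPM, which the authors made from reads counted to genes and scaled to a library total of 1e+06. Per the submitters' processing notes bcl2fastq, STAR and HTSeq were used with mm10, and per the labels' protocols QuantSeq 3′ libraries came from RNA of sorted cells. The sources used here give no versions, annotation release or strand setting. Dividing each column by its smallest step recovered whole reads for 100% of values (tolerance 1e-06).

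A gene was tested when 3 or more libraries reached 1 CPM. With limma 3.58.1 in R 4.3.3, lmFit and trended eBayes were run on log2(CPM + 1), with 1 mean per time point over all 9 libraries, for 3 contrasts and a moderated F-test. edgeR 4.0.16 and DESeq2 1.42.0 on recovered reads, pseudocounts of 0.1 and 5 CPM, other filters and scalings, a robust spread, a replicate block and leaving out each library were alternatives. The limma step was tested on simulated data. No 2 replicates agreed within sampling noise. Labels do not say that the mice were handled in batches, and p-values rest on the spread between these 3 mice per time point.

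The members and lists were chosen with earlier results of these data known. All members are named. From each list members past the threshold are named, or the 2 with the smallest F-test p (those of the list of other IRF and STAT genes are not reported here), in the contrast with the smallest p, and for likeness the 5 highest r. Positions came from GENCODE M21 (GRCm38, the mm10 assembly) and promoter windows from RefSeq (GRCm38.p6). All 9 members matched.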

Additional observations from a re-analysis of the deposited data

How the results depend on the processing

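The log2 changes of the 9 members over the 3 comparisons kept their direction and their side of the threshold in 476 of the alternative values, turned in 30 and crossed the threshold in 7. The Irf7 calls are the ones that moved. The members called at day 90 against day 7 numbered 1, and 0 with a pseudocount of 0.1 CPM or no filter on low values. At day 30 against day 7 they numbered 0, and 1 with DESeq2. In the F-test over time points they numbered 1, and 0 with a pseudocount of 0.1 CPM, no filter, or a filter at 10 CPM. Leaving out 1 library gave 0 to 1 in the day 90 against day 7 comparison and in the F-test, and 0 in the others; the F-test call was lost without any day 7 library, day 30 replicate 2, or day 90 replicates 3 or 4.

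Over all genes, day 90 against day 7 had 37 calls, 1 with no filter, 22 with edgeR, 129 with DESeq2 and 18 to 62 leaving out 1 library. Day 30 against day 7 had 0 calls, 3 with a pseudocount of 5 CPM, 2 with quantile normalization, 34 with DESeq2, 10 with the replicate block and 0 to 8 leaving out 1 library. Day 90 against day 30 had 8, 0 with no filter, 27 with DESeq2 and 4 to 18 leaving out 1 library. The F-test had 26, 15 with a pseudocount of 0.1 CPM, 0 with no filter, 16 with edgeR, 55 with DESeq2 and 11 to 52 leaving out 1 library.

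Directions that turned were all of changes short of the threshold. Irf1 was -0.062 at day 30 against day 7 with quantile normalization. Irf2 was -0.014 (edgeR) and -0.0098 (DESeq2) at day 90 against day 7. Irf3 was -0.021 at day 90 against day 7 with the replicate block, and at day 90 against day 30 it was 0.00085 with median-of-ratios scaling and 0.0012 with DESeq2. Irf5 was 0.0020 at day 90 against day 30 with quantile normalization. Leaving out 1 library, the day 30 against day 7 change ran from -0.10 to 0.24 for Irf1 and from -0.16 to 0.18 for Stat6. The day 90 against day 7 change ran from -0.25 to 0.23 for Irf2, -0.033 to 0.32 for Irf5 and -0.057 to 0.24 for Stat6. The day 90 against day 30 change ran from -0.0018 to 0.35 for Irf1, -0.40 to 0.27 for Irf3, -0.13 to 0.10 for Irf5, -0.85 to 0.0074 for Irf7, -0.15 to 0.19 for Irf9, -0.36 to 0.0088 for Stat3 and -0.11 to 0.24 for Stat6. The cause of each turn was not tested.

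Replicate numbers do not pair the samples by any label. Same-numbered libraries of different time points had deviations from their time point means that correlated at -0.04 to 0.04. With the replicate block the Irf7 change at day 90 against day 7 was -2.52 (adjusted p = 0.0183), and Lcn2 lost its call (-4.16, adjusted p = 0.0539). With 3 mice per time point, a 2-fold change of Irf2, Irf3, Irf7, Irf9 or Stat2 lies within a 95% interval of at least 1 comparison.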
